A study of Mus musculus with 13 samples.

Results

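The genes described here are 34 genes of sterol and fatty acid synthesis in mouse fibroblasts under ER stress. The rule used their symbols and mean level and not their changes, but the symbols were chosen with earlier results of these data known. All 34 passed the limit of a mean TPM of at least 2 in both the embryonic fibroblast and the NIH3T3 libraries, out of 22406 symbols in the tables. The 34 genes fall into 7 genes of the mevalonate pathway, 11 of late sterol synthesis, 6 regulators of SREBP or carriers of sterol, and 10 of fatty acid synthesis. Ribosome footprints, which are the pieces of mRNA covered by translating ribosomes, were sequenced from mouse embryonic fibroblasts (MEFs) and NIH3T3 cells, a mouse fibroblast line. The MEFs were PERK WT or PERK -/-, and each genotype was untreated (control) or treated with 1 µM thapsigargin (Tg) for 1, 2, 5 or 8 h. NIH3T3 cells, whose genotype is labelled WT, were untreated or treated with 200 nM Tg for 2 or 7 h. Tg blocks the calcium pump of the ER and so causes ER stress, and PERK is the ER kinase that phosphorylates eIF2α and lowers global translation under that stress. All cells were harvested without cycloheximide, after trypsin. Whether a MEF line was 1 clone is not given in the sources used here. There were 13 libraries and no replicates, which means that no change can be weighed against replicate error and that no test between conditions was made.

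Cholesterol is built from acetyl-CoA in the mevalonate pathway, which ends in farnesyl diphosphate, and then in a late branch from squalene to lanosterol to cholesterol, most of whose enzymes sit in the ER membrane. SREBP transcription factors are made as precursors in that membrane. When sterols are low, Scap carries them to the Golgi to be cut and released, when sterols are high, the Insig proteins hold Scap back, and the released factors switch on the genes of both sterol and fatty acid synthesis. SREBP1 is known mainly for fatty acid genes and SREBP2 for sterol genes.

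Promoters of sterol genes often hold a CCAAT box, to which the factor NF-Y binds beside SREBP, so the 250 bases before the start of each gene in RefSeq (GRCm38.p6) were searched on both strands. Of the 34 genes, 27 had a promoter in the table used. Fdps, Fdft1, Sqle, Stard4, Scd1, Scd2 and Fads1 had no entry. The letters CCAAT were in 21 of these 27 promoters (77.8%), against 41.5% of 8045 genes expressed in MEFs and 37.5% of all 27025 genes. By subgroup, the box was in 9 of 9 late sterol, 5 of 6 mevalonate, 4 of 5 SREBP regulator and 3 of 7 fatty acid promoters. The E-box CACGTG, which SREBP1 can also bind, was in 6 of 27 (22.2%, against 10.5% of expressed genes). The core CACNCCAC of the sterol regulatory element was in 3 of 27 (11.1%, against 6.58%), and the cAMP response element TGACGTCA was in none (against 3.23%). In all, 10 motifs were searched, and these 4 and the promoters printed here were picked after the values had been seen. Overlaps between motifs were not removed. A match shows only that the letters are there.

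Below are 5 such stretches, 5′ to 3′, ending at the base before the start, with CCAAT boxes (ATTGG on the other strand) and E-boxes in capitals. Hmgcs1, Nsdhl and Sc5d were at least 2-fold below control in late WT libraries, Ebp was not, and Elovl6 was but holds no CCAAT.
Hmgcs1 (chr13:119690101-119690350, plus strand): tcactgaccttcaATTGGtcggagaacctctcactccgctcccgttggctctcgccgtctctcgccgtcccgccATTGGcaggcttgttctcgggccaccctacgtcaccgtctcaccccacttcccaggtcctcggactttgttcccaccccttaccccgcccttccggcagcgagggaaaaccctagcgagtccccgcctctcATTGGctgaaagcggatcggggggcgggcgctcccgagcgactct
Nsdhl (chrX:72918271-72918520, plus strand): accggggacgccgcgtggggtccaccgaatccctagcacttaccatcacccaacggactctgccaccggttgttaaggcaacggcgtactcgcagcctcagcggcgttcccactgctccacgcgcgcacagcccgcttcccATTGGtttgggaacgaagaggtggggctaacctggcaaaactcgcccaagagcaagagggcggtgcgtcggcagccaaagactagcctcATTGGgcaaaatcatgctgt
Sc5d (chr9:42264301-42264550, minus strand): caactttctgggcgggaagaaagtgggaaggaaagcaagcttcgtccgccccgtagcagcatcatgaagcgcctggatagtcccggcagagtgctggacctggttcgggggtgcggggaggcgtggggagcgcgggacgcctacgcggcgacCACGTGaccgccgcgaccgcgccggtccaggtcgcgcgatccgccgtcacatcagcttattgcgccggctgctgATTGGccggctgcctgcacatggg
Ebp (chrX:8193513-8193762, minus strand): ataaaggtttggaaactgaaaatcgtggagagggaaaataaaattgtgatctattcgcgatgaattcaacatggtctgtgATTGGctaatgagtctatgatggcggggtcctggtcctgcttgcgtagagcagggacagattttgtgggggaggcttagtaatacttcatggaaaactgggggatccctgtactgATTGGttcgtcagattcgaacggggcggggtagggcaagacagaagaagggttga
Elovl6 (chr3:129532136-129532385, plus strand): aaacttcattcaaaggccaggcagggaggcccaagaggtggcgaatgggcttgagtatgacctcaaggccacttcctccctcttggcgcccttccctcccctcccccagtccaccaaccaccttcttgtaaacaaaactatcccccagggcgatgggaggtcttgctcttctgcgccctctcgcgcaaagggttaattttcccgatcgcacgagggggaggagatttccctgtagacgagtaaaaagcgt
Hmgcs1 holds 3 CCAAT boxes, of which the last begins 45 bases before the start. Nsdhl and Ebp hold 2 each, and Sc5d holds 1, together with 1 E-box.

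The values below are TPM, in which each library has the same total and footprints are scaled for length, so that they can be compared between genes as well as libraries. A change in TPM is therefore a change in proportion to the rest of the same library. In the study's polysome profiles, overall translation fell sharply in WT MEFs and showed no early fall in PERK -/- MEFs. The order of the genotypes in TPM changes therefore does not give their order in absolute synthesis. In bulk libraries fewer cells that make a protein cannot be told apart from less of it per cell. Footprints also combine the amount of an mRNA with its translation. With footprint libraries only, a change in one cannot be told apart from a change in the other. Changes are log2 ratios of Tg to the untreated library of the same cells, with TPM values under 4 raised to 4. A gene's 95% interval came from its expected counts per library total by the exact conditional (Clopper-Pearson) method and covers counting error only, and the interval of a subgroup's median came from binomial order statistics over its genes. The total expected counts ran from 2525029 to 14799515 in MEFs and from 2569965 to 11121006 in NIH3T3 cells, and 3 counts equal 0.203 to 1.19 CPM. Of the 34 genes, 28 had at least 100 counts in every library, and the lowest value was 19 counts (Insig2, WT at 2 h). Eif2ak3, which encodes PERK, was at 6.03 to 15.7 TPM in WT and 5.21 to 17.2 TPM in PERK -/- MEFs. Its level therefore did not separate the genotypes, but a value summed over the gene cannot show the loss of some exons. Ddit3, which encodes CHOP and is induced downstream of PERK, went from 13.8 TPM in the control to 580 TPM at 8 h in WT and was at 6.91 to 14.2 TPM in every PERK -/- library. Hspa5, the ER chaperone BiP, went from 1357 to 7149 TPM over 8 h in WT, from 1646 to 4376 TPM in PERK -/- MEFs and from 1985 to 12210.5 TPM over 7 h in NIH3T3 cells. Herpud1, of ER-associated degradation, went from 25.6 to 535 TPM, from 36.5 to 85.8 TPM and from 228 to 1518 TPM. Of 12 fibroblast markers, 10 were expressed in MEFs and 8 in NIH3T3 cells, with Dcn, Lum and Fap at 0 in NIH3T3 cells and, like Pdgfra, at most at 2.79 TPM in WT MEFs. The summed level of 6 epithelial, 4 endothelial and 5 immune markers did not exceed 25.1, 5.14 and 4.80 TPM, against at least 4831 TPM for the fibroblast list.

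In untreated cells the 34 genes together held 6545 TPM in WT, 7970 TPM in PERK -/- and 5128 TPM in NIH3T3 cells. Scd2, a stearoyl-CoA desaturase, was the most abundant of them in 12 of the 13 libraries, at 1390 TPM in the WT control, followed there by Msmo1 at 545 TPM, Fdps at 453 TPM and Cyp51 at 407 TPM. The lowest were Tm7sf2, a sterol reductase, at 10.6 TPM, and Scap at 11.8 TPM. The untreated PERK -/- library was above the WT one for 25 of the 34 genes, with a median log2 difference of 0.28 (0.18 to 0.44) against 0.08 over all 10432 expressed genes. Pmvk, phosphomevalonate kinase, differed most, with 37.0 TPM in WT and 99.6 TPM in PERK -/- MEFs (a log2 difference of 1.43 in TPM and 1.16 in counts, 0.90 to 1.42). Tm7sf2 was at 10.6 and 19.9 TPM and Dhcr7, dehydrocholesterol reductase, at 69.6 and 128 TPM. Elovl6 went the other way, with 123 and 98.3 TPM.

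Under Tg, the summed footprints of sterol enzymes were below the control at every time in WT MEFs. In PERK -/- MEFs they were below it at 1 and 2 h and above it at 8 h, and in NIH3T3 cells they were near it at 2 h and below it at 7 h. The summed TPM of the 34 genes was 6545, 5392, 4674, 4513 and 4787 in WT (control, 1, 2, 5 and 8 h). It was 7970, 4899, 4950, 9422 and 12428 in PERK -/- MEFs, and 5128, 4951 and 3705 in NIH3T3 cells (control, 2 and 7 h). The late sterol enzymes alone went from 1952 to 991 TPM over 8 h in WT and from 2187 to 3472 TPM in PERK -/- MEFs. The median over all expressed genes was between -0.06 and 0.04 except at 2 h in PERK -/- MEFs (-0.11) and at 2 h in NIH3T3 cells (-0.13).

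**Figure D1:**
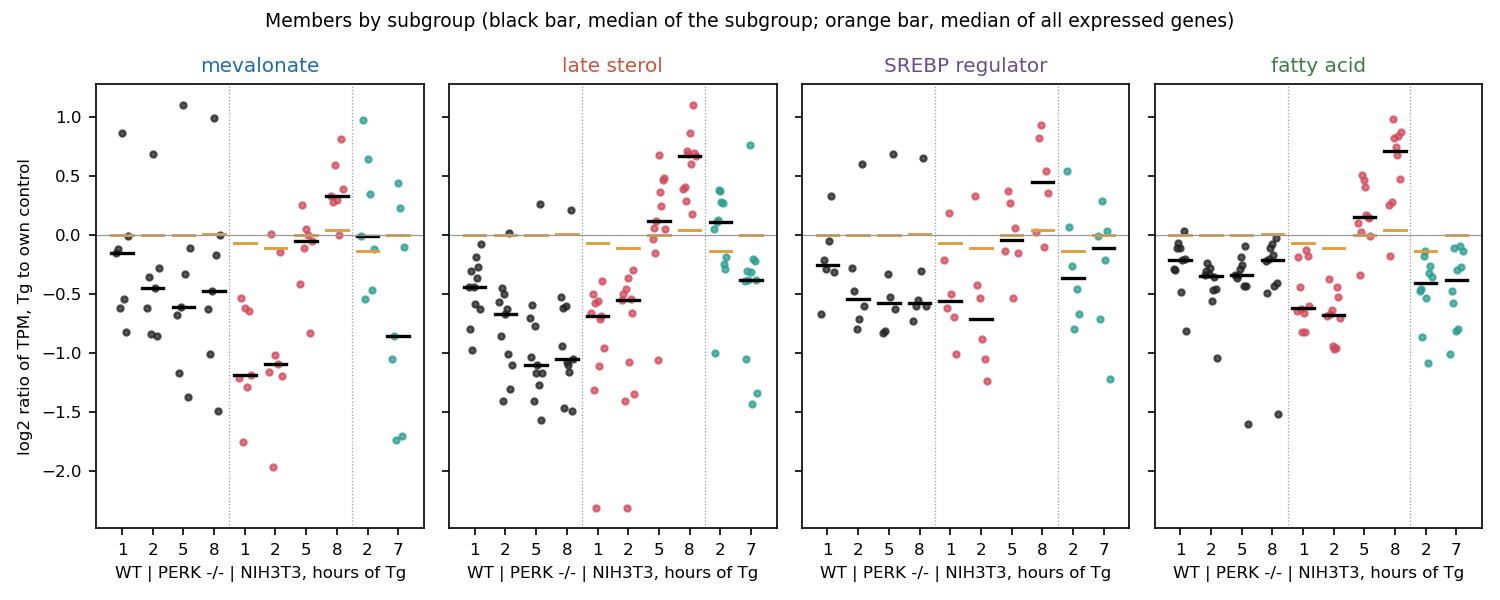
Log2 ratio of TPM to the own control (y axis) for each of the 34 genes, in 4 panels by subgroup, with the 10 Tg libraries along the x axis in hours. Points are genes, black bars the median of the subgroup and orange bars the median of all expressed genes. The late sterol median is -1.10 at 5 h in WT, and in PERK -/- MEFs it goes from -0.69 at 1 h to 0.67 at 8 h.

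In WT MEFs, late sterol enzymes had the lowest median of the subgroups at each time. Their median log2 change was -0.43 at 1 h (-0.80 to -0.19), -0.67 at 2 h (-1.31 to -0.45), -1.10 at 5 h (-1.40 to -0.59) and -1.05 at 8 h (-1.46 to -0.52). Mevalonate genes had medians of -0.15, -0.45, -0.61 and -0.47, SREBP regulators of -0.25, -0.54, -0.57 and -0.57, and fatty acid genes of -0.21, -0.35, -0.34 and -0.21 at these times. At 8 h the interval of the late sterol median did not overlap that of the fatty acid genes (-0.49 to -0.07). It overlapped those of the mevalonate genes (-1.49 to 1.00) and SREBP regulators (-0.73 to 0.66), which run from the lowest to the highest gene. Such overlap cannot separate subgroups of this size. With the trend of each library on the GC content of coding sequences removed, the 8 h medians were -0.91 for late sterol (-1.19 to -0.52), -0.76 for mevalonate, -0.60 for SREBP regulator and -0.39 for fatty acid genes (-0.58 to -0.33), and the late sterol and fatty acid intervals then overlapped. With counts thinned to the smallest library the SREBP regulator median was -0.27. Of the 34 genes, 31 were below control at each of the 4 times, and the counting interval lay below 0 for 25, 29, 29 and 28 of them. None was 2-fold lower at 1 h (background, 2.29% of expressed genes) and 5 were at 2 h (background 4.01%). At 5 h 10 were (background 3.55%), and at 8 h 9 were (background 3.87%). Pmvk was the one gene at least 2-fold higher, at 5 h, where the background is 5.86%. This held in TPM (1.11) and not in counts (0.76, 0.46 to 1.05) or without the GC trend. None was that much higher at 1, 2 or 8 h (background 4.33%, 5.66% and 6.45%).

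The 9 genes that were 2-fold lower at 8 h were Hmgcs1 and Idi1 of the mevalonate pathway, Cyp51, Msmo1, Nsdhl, Hsd17b7, Sc5d and Dhcr7 of late sterol synthesis, and Elovl6 of the fatty acid genes, and at 5 h Sqle was added to them. Cyp51, the lanosterol demethylase, was at 407 TPM in the WT control and at 207, 154, 154 and 147 TPM at 1, 2, 5 and 8 h. It was thus already low at 1 h, where it had the lowest change of the 34 genes, and stayed near the same level from 2 h on. At 8 h its log2 change in counts was -1.46 (-1.53 to -1.40), and 1.00% of expressed genes lay lower. Sc5d, a sterol desaturase, was at 185 TPM and then at 120, 74.6, 62.2 and 65.9 TPM. Idi1, which isomerises isopentenyl diphosphate, was at 180 TPM and then at 102, 99.7, 69.8 and 64.1 TPM, so that the 8 h library was its lowest (log2 change in counts -1.49, -1.63 to -1.36). Hmgcs1, HMG-CoA synthase, was slower, with 371 TPM in the control, 343 TPM at 1 h and 291 TPM at 2 h before 165 TPM at 5 h and 185 TPM at 8 h. Dhcr7 had 69.6 TPM in the control and 66.2 TPM at 1 h, and then 32.4, 31.0 and 33.6 TPM. These genes held the lower level from 5 to 8 h, since the 34 genes differed between those libraries by a median of 0.09, with an SD over the genes of 0.11.

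Neighbouring enzymes of the mevalonate pathway did not move together in WT MEFs. Fdps, farnesyl diphosphate synthase, was at 453, 452, 373, 420 and 453 TPM from control to 8 h, so it was back at the control value. Mvd, the decarboxylase, was at 56.8 TPM and then at 39.0, 41.7, 45.3 and 50.6 TPM, its lowest value being at 1 h. Pmvk was above its control at every time, at 37.0 TPM and then at 67.5, 59.9, 79.8 and 74.0 TPM. Its log2 change at 8 h was 1.00 in TPM and 0.69 in counts (0.44 to 0.94). Acat2, a thiolase, was at 158 TPM and then at 142, 103, 99.0 and 102 TPM, and Mvk at 27.3 TPM and then 15.2 to 19.6 TPM. Among late sterol enzymes, Fdft1, the squalene synthase at the branch point, was at 262 TPM in the control and 162 to 194 TPM after it, Lss at 70.2 and 45.7 to 57 TPM, and Hsd17b7, a keto reductase, at 70.3 and 29.2 to 54.8 TPM. Ebp, the sterol isomerase, stood apart, with 80.9 TPM in the control, 67.2 TPM at 1 h and 93.9 TPM at 8 h (log2 change in counts 0.21, 0.06 to 0.37). Some values carry a reading limit. In 28-nt stretches, Acat2 shares 81.2% of its coding sequence with other genes, most of all Acat3, and Fdps 83.7%, most of all Gm43738. Scd1 and Scd2 share 40.7% and 37.4%, most of all with Scd3, and Fads2 shares 2.17%, most of all with Fads3, so that their counts are uncertain. As deposited, Acat3 was at 0 TPM but for 1.75 TPM at 8 h in PERK -/- MEFs. Scd3 was at most at 1.35 TPM, while Fads3 was at 97.6 TPM or more.

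The SREBP genes split. Srebf1, which encodes SREBP1, was at 40.6 TPM in the WT control and at 51.0, 61.5, 65.3 and 63.9 TPM after it, always higher, with a log2 change in counts of 0.65 at 8 h (0.56 to 0.74). With the trend of the library on GC content removed, its TPM change at 8 h was 0.25. Srebf2, which encodes SREBP2, was at 89.0 TPM and then at 71.6, 58.7, 57.8 and 58.8 TPM, always lower (-0.59 in counts at 8 h, -0.66 to -0.51). Insig1 was at 164 TPM and then at 142, 118, 93.5 and 108 TPM. Insig2 was at 20.4 TPM in the control and 11.8 to 16.7 TPM after it, but its counts gave a change of 0.08 at 8 h (-0.33 to 0.50) where its TPM gave -0.55. TPM and counts of the 34 genes differed by over 0.3 in 9 of 340 changes, all of Insig2, Pmvk or Tm7sf2. Stard4, a sterol carrier of the cytosol, was at 95.7 TPM in the control and 57.7 TPM at 8 h. Scap was at 11.8 TPM in the control and 7.20 to 11.4 TPM after it.

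Of the fatty acid genes, Elovl6, the elongase that makes stearate from palmitate, was the exception. It was at 123 TPM in the WT control and at 70.2, 59.6, 40.6 and 43.0 TPM, with a log2 change in counts of -1.52 at 8 h (-1.69 to -1.35), and it had the lowest TPM change of the 34 genes at 5 and 8 h. The other 9 lay between -0.49 and -0.02 at 8 h. Fasn, fatty acid synthase, was at 155 TPM in the control and 123 to 144 TPM after it, and Scd2 at 1390 TPM and then 1144 to 1321 TPM. Acly, ATP citrate lyase, which supplies cytosolic acetyl-CoA, was at 157 TPM in the control and 135 TPM at 8 h. The desaturases Fads1 and Fads2 were at 228 and 238 TPM in the control and at 203 and 177 TPM at 8 h, and the elongase Elovl5 at 198 and 150 TPM.

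**Figure D2:**
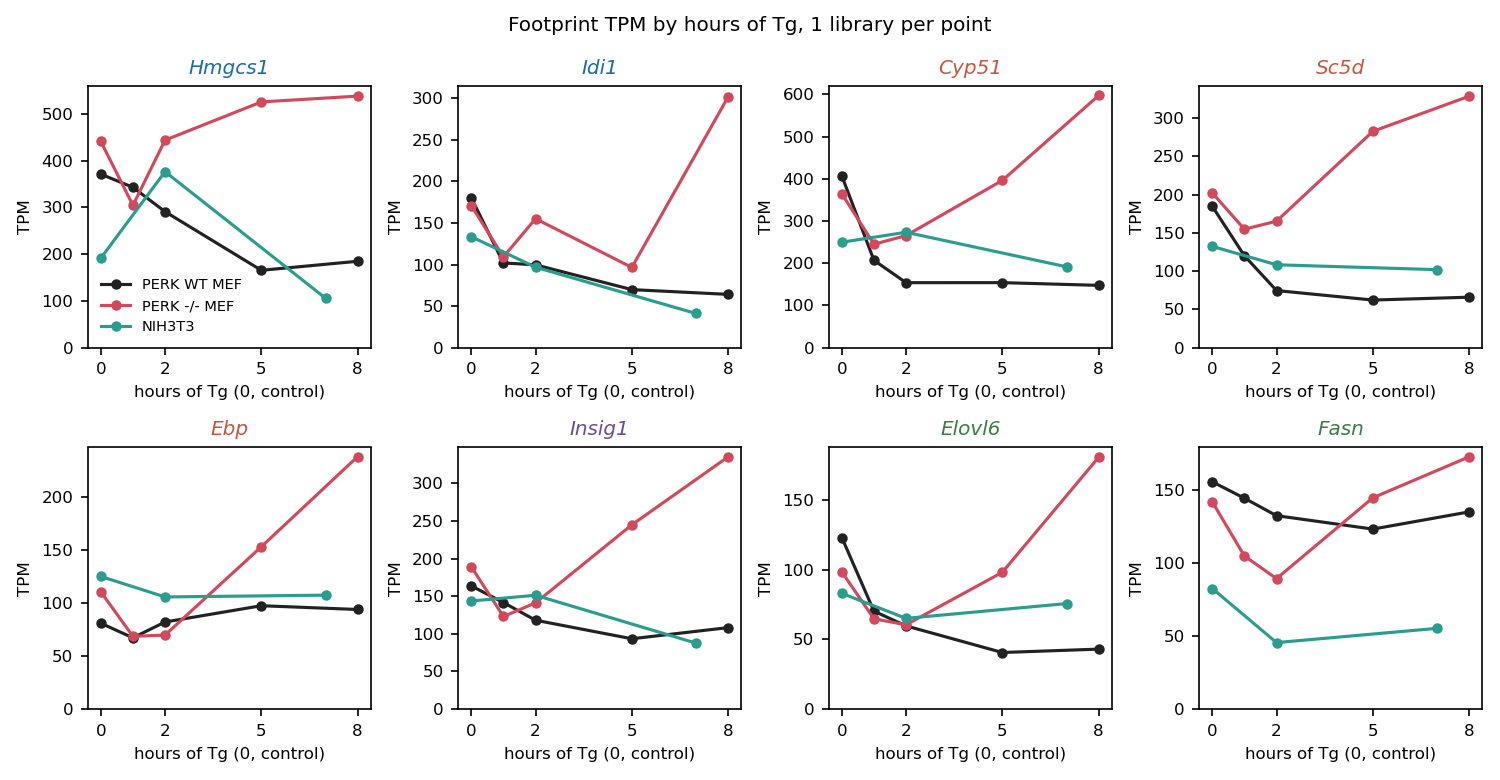
TPM (y axis, from 0) by hours of Tg (x axis, 0 is the control) for 8 of the genes, 1 library per point, in PERK WT MEFs (black), PERK -/- MEFs (red) and NIH3T3 cells (green). Cyp51, Sc5d and Elovl6 part between the MEF lines with time, and at 8 h Cyp51 is at 147 TPM in WT and at 597 TPM in PERK -/- MEFs.

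In PERK -/- MEFs the genes were low early and high late. Mevalonate genes were the lowest subgroup at 1 and 2 h, with medians of -1.19 (-1.75 to -0.53) and -1.10 (-1.96 to 0.01), and were at -0.05 at 5 h (-0.82 to 0.25) and at 0.33 at 8 h (0.01 to 0.82). Late sterol enzymes went from -0.69 (-1.31 to -0.50) and -0.55 (-1.41 to -0.37) to 0.12 (-0.15 to 0.48) and 0.67 (0.29 to 0.87). SREBP regulators went through -0.56, -0.71, -0.04 and 0.45, and fatty acid genes through -0.61, -0.67, 0.15 and 0.71. All subgroups thus turned from below to above the control, and 33, 32, 12 and 2 of the 34 genes lay below it at the 4 times. At 1 h 8 genes were 2-fold lower (background 3.38%), at 2 h 11 (background 5.78%), at 5 h 1 (background 4.77%) and at 8 h none (background 2.73%). The count of genes 2-fold higher was 0 at 1, 2 and 5 h (background 0.719%, 0.623% and 3.26%) and 1 at 8 h (background 3.28%). The 8 genes at 1 h were Acat2, Mvk, Mvd, Fdps, Lss, Tm7sf2, Nsdhl and Srebf2, and the 11 at 2 h were these with Pmvk, Dhcr7 and Srebf1. The 1 gene at 5 h was Tm7sf2, and none was with the GC trend removed or with 1 TPM added in place of the floor. On counts scaled by TMM or by DESeq2 size factors, 5 genes were 2-fold lower at 2 h, namely Mvk, Lss, Tm7sf2, Dhcr7 and Srebf2.

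The 2 early libraries also had a trend on base composition that was near 0 in the late ones. Over all expressed genes, the change went down with the GC content of the coding sequence, with Spearman's rho of -0.37 at 1 h and -0.47 at 2 h across 10022 genes, against -0.08 at 5 h and -0.01 at 8 h. In WT the rho was 0.25, 0.36, 0.42 and 0.47, in the opposite direction. These are values across genes, which are not independent replicates. The median GC content of the 34 genes was 53.4%, against 52.7% in expressed genes. With the trend removed from each library, the early medians in PERK -/- MEFs were -0.99 and -0.67 for mevalonate, -0.64 and -0.52 for late sterol, -0.30 and -0.51 for SREBP regulator and -0.46 and -0.43 for fatty acid genes. The genes 2-fold lower at 2 h were then 6, namely Mvk, Fdps, Lss, Tm7sf2, Nsdhl and Dhcr7.

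Tm7sf2 had the lowest change of the 34 genes at 1 and 2 h, with 19.9 TPM in the PERK -/- control, then 3.33, 1.78, 9.54 and 32.1 TPM. These rest on 169, 43, 35, 99 and 300 counts, and both early TPM values lie under the floor of 4, so the change of -2.31 at 1 and 2 h understates that of the counts, which was -2.55 (-3.06 to -2.06) and -3.41 (-3.98 to -2.88). Mvk, mevalonate kinase, was at 34.1 TPM and then at 10.1, 8.74, 31.6 and 51.6 TPM. Lss, lanosterol synthase, was at 98.3 TPM and then at 39.6, 37.0, 88.5 and 120 TPM. Both were thus low at 1 and 2 h, close to the control at 5 h and above it at 8 h. Mvd was at 75 TPM, 30.7 TPM at 1 h and 35.1 TPM at 2 h, and was back at 75.3 TPM at 8 h. Hmgcs1 was the mevalonate gene nearest to its control at 1 and 2 h, with 441 TPM in the control, 304 TPM at 1 h, 444 TPM at 2 h and 538 TPM at 8 h. Idi1 had its own course, with 171 TPM in the control, 109 TPM at 1 h, 155 TPM at 2 h, 96.5 TPM at 5 h and 302 TPM at 8 h.

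At 8 h, 32 of the 34 genes were above the PERK -/- control, and the counting interval lay above 0 for 30. Ebp was the gene 2-fold higher, at 110 TPM in the control and at 68.6, 69.8, 153 and 238 TPM. Its log2 change in counts at 8 h was 1.10 (0.94 to 1.25). Msmo1, the methylsterol oxidase, was at 535 TPM and then at 364, 415, 856 and 979 TPM. Scd1 was at 291 TPM and then at 189, 188, 415 and 577 TPM, and Scd2 at 1706 TPM and then at 967, 892, 2366 and 3020 TPM. Insig1 was at 189 TPM and then at 123, 141, 245 and 335 TPM. Elovl1 and Elovl6, both elongases, were at 361 and 181 TPM at 8 h, against 201 and 98.3 TPM in the control, and Fads1 and Fads2 at 445 and 519 TPM, against 265 and 323 TPM. Acaca, acetyl-CoA carboxylase, was below the control at every time, at 35.2 TPM and then at 30.9, 27.2, 27.9 and 31.1 TPM, and Scap was also lower at 8 h (9.39 against 10.1 TPM). Srebf1 and Srebf2, split in WT, were both low at 2 h (27.0 and 54.7 TPM, against 55.9 and 129 TPM in the control) and both high at 8 h (81.6 and 165 TPM). From 5 to 8 h, 33 of the 34 genes were higher, by a median of 0.44 against 0.05 for all expressed genes.

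**Figure D3:**
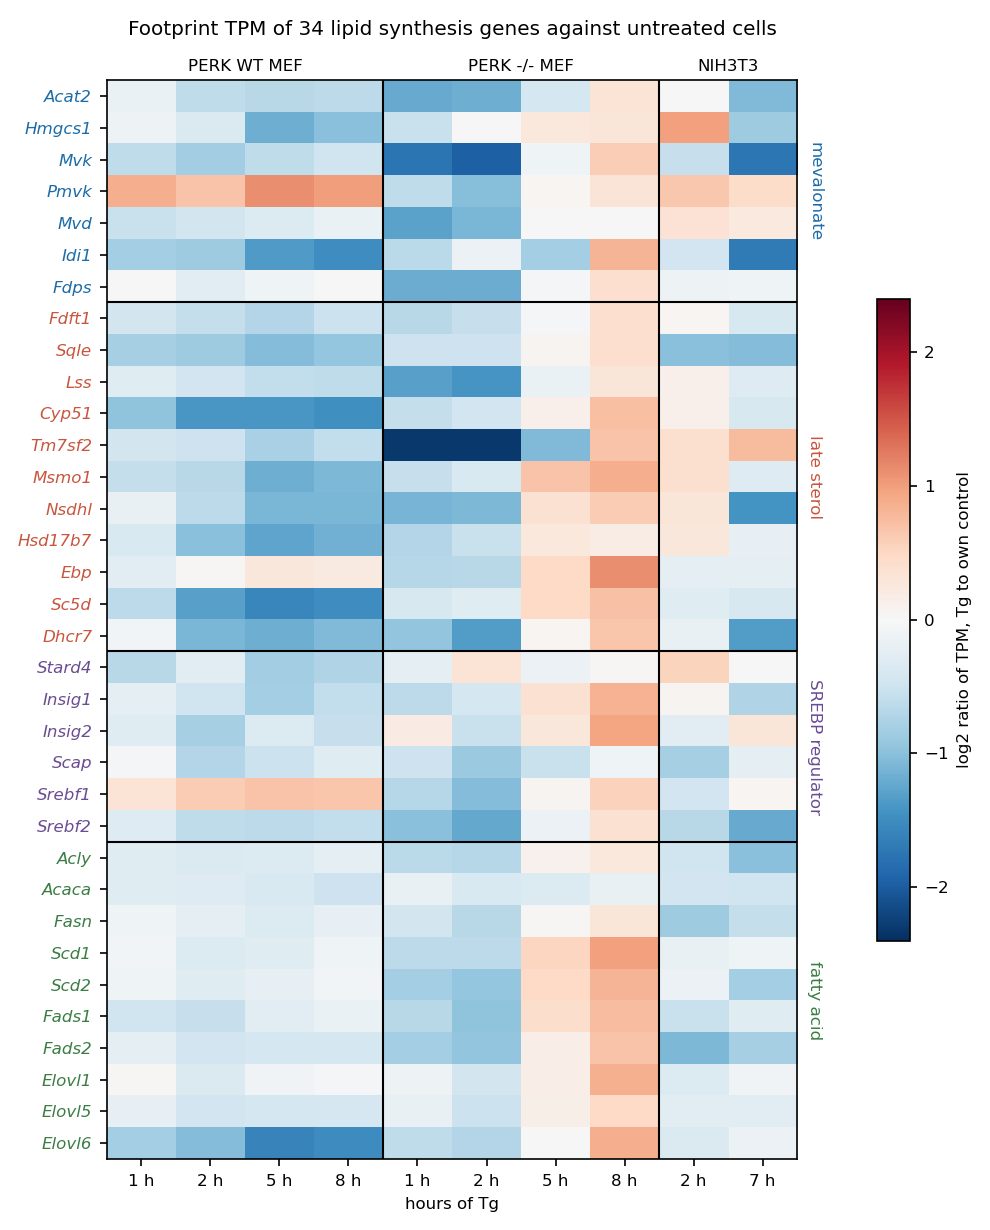
Log2 ratio of TPM to the own control (colour, blue lower and red higher) for the 34 genes (rows, grouped by subgroup) in the 10 Tg libraries (columns, hours of Tg). WT columns are mostly blue at all times with Pmvk and Srebf1 red, and PERK -/- columns go from blue at 1 and 2 h to red at 8 h.

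The question of whether the late change needs PERK was put by setting the change in each genotype beside the other. The genotypes were different MEF lines, and all times of a genotype share 1 control library. Loss of PERK therefore cannot be told apart from other differences between the lines or their controls. At 8 h, 29 of the 34 genes (85.3%) were below the control in WT and above it in PERK -/- MEFs, as were 18.9% of the 10432 expressed genes. For 24 of them both counting intervals lay off 0 in these directions. Since the 34 genes were chosen with earlier results of these data known, these shares are not independent of those results. The median difference of the log2 changes (PERK -/- minus WT) was -0.41 at 1 h (-0.71 to -0.16), -0.28 at 2 h (-0.55 to 0.05), 0.58 at 5 h (0.36 to 0.79) and 0.96 at 8 h (0.88 to 1.35). Over all expressed genes it was -0.09, -0.19, -0.04 and 0. These are differences in shares of a library and not in absolute synthesis, and their intervals run over genes, not libraries. With the GC trend removed from each library the differences were -0.28, 0.01, 0.72 and 1.06, so the early ones shrank and the late ones did not. At 8 h the difference was 1.35 in late sterol (0.91 to 2.18), 0.96 in mevalonate (-0.70 to 2.31), 0.86 in SREBP regulator (-0.11 to 1.49) and 0.89 in fatty acid genes (0.48 to 1.11). Its counting interval lay above 0 for 30 of the 34 genes and below 0 for none. The 4 genes whose interval held 0 were Pmvk, Mvd, Scap and Srebf1. For Pmvk the difference was -0.70 in TPM and -0.08 in counts (-0.41 to 0.25).

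The largest difference at 8 h was that of Elovl6, with 43.0 TPM in WT and 181 TPM in PERK -/- MEFs from controls of 123 and 98.3 TPM, and a difference in counts of 2.38 (2.16 to 2.61). Idi1 followed with 2.30 (2.13 to 2.48), then Sc5d with 2.18 (2.01 to 2.34) and Cyp51 with 2.17 (2.08 to 2.25), and the intervals of these 4 overlap. The smallest positive ones with an interval above 0 were those of Acaca at 0.35 (0.23 to 0.47), Fdps at 0.41 (0.34 to 0.48) and Acly at 0.47 (0.39 to 0.55). At 1 h the order was different, since the difference was below 0 with its interval for 23 genes, and the mevalonate genes had the lowest median, at -1.06 (-1.48 to 0.18).

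**Figure D4:**
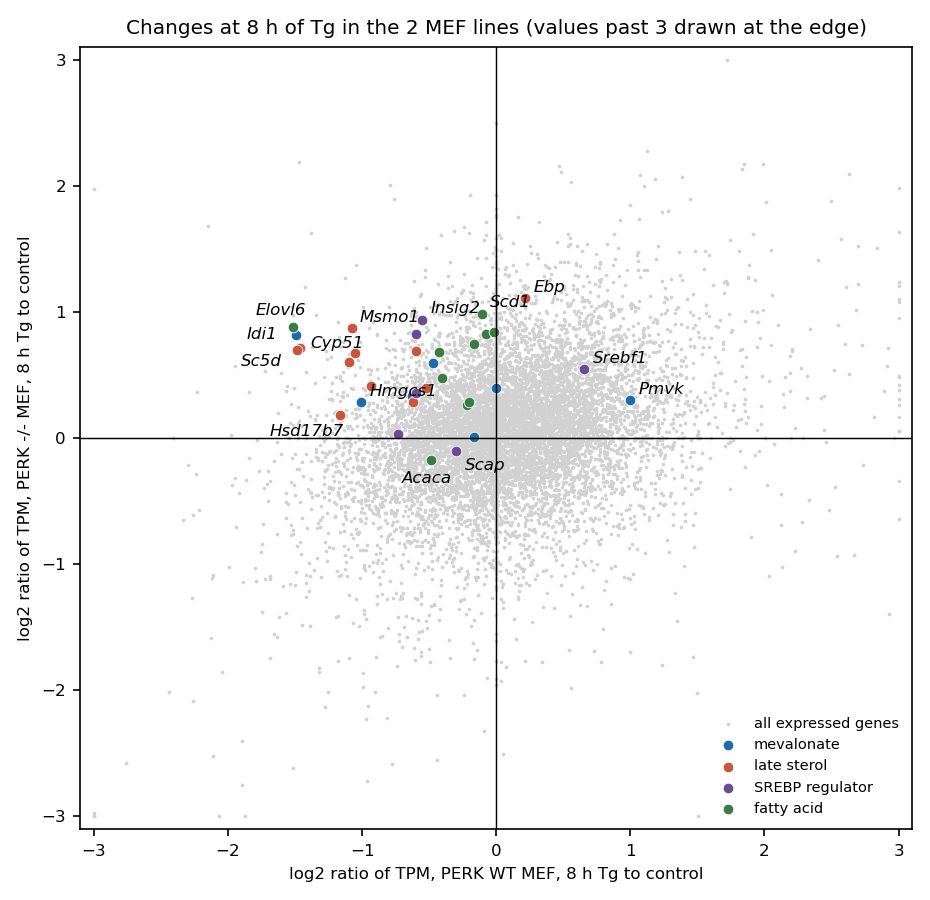
Log2 ratio of TPM to the own control after 8 h of Tg in PERK WT MEFs (x axis) and PERK -/- MEFs (y axis), with grey points for all expressed genes and coloured points for the 34 genes by subgroup. Most of the 34 lie in the upper left, below 0 in WT and above 0 in PERK -/- MEFs, and Pmvk, Srebf1 and Ebp lie to the right of 0.

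In NIH3T3 cells the dose and the late time differ from those of the MEFs, so the values are set side by side. At 2 h the sterol enzymes were near the control, with medians of -0.01 for mevalonate (-0.54 to 0.98) and 0.11 for late sterol genes (-0.29 to 0.38), while fatty acid genes were at -0.40 (-0.86 to -0.17) and SREBP regulators at -0.36 (-0.80 to 0.54). With the GC trend removed, which also takes away the shift of all genes, these were 0.18, 0.25, -0.25 and -0.18. Only Sqle, squalene epoxidase, and Fads2, a desaturase, were 2-fold lower (background 3.76%), and none was 2-fold higher (background 5.76%). On counts scaled by TMM or DESeq2 size factors, and with the GC trend removed, neither was 2-fold lower and Hmgcs1 was 2-fold higher. At 7 h the medians were -0.86 for mevalonate (-1.73 to 0.44), -0.38 for late sterol (-1.33 to -0.20), -0.11 for SREBP regulator (-1.22 to 0.29) and -0.38 for fatty acid genes (-0.81 to -0.11). At 7 h 8 genes were 2-fold lower (background 8.06%), and none was 2-fold higher (background 7.01%).

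These 8 were Acat2, Mvk, Idi1, Sqle, Nsdhl, Dhcr7, Srebf2 and Acly, of which Mvk, Idi1, Nsdhl, Dhcr7 and Srebf2 were 2-fold lower on counts scaled by TMM or DESeq2 size factors as well (5 genes). Idi1 was at 134 TPM in the control, 96.8 TPM at 2 h and 41.1 TPM at 7 h (log2 change in counts -1.70, -1.91 to -1.49). Mvk was at 45.1, 30.9 and 13.6 TPM, Nsdhl at 94.9, 116 and 35.2 TPM, and Dhcr7 at 37.0, 32.6 and 14.7 TPM. Idi1, Nsdhl and Dhcr7 were also 2-fold lower in WT MEFs at 8 h. They were 3 of the 8 here and 3 of the 9 there. Of all 34 genes, 3 were thus lower in both, against 87 of the 9367 genes expressed in both (0.929%). With Sqle, 4 of the 8 were among the 10 at 5 h in WT. Of all 34 genes, 4 were thus lower in both, against 78 of the 9367 (0.833%). Hmgcs1 changed direction, with 191 TPM in the control, 376 TPM at 2 h and 106 TPM at 7 h. Its change in counts was 1.10 (1.01 to 1.18) and then -0.86 (-0.96 to -0.76). Cyp51, low at all times in WT MEFs, was at 250, 273 and 191 TPM, and Elovl6 at 83.0, 65.0 and 75.6 TPM. Srebf2 was at 92.8, 58.5 and 39.9 TPM, while Srebf1 was at 19.9, 14.5 and 20.4 TPM. Pmvk was above the control here too, at 88.6, 139 and 120 TPM.

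Sorting the genes by a feature of their proteins gave a further view. A protein was counted as having a membrane-type segment when a window of 19 residues reached a mean Kyte-Doolittle hydropathy of 1.6 in the translated coding sequence of the GENCODE annotation of GRCm38. Of the 34 genes, 25 had at least 1 such window and 9 had none. At 8 h in PERK -/- MEFs the median change was 0.68 with a window (0.48 to 0.82) and 0.29 without (0.03 to 0.40), against 0.12 and 0.02 for all expressed genes. In WT at 8 h it was -0.52 (-0.94 to -0.30) and -0.62 (-1.01 to -0.00048), against 0 and 0.04 for all expressed genes. In NIH3T3 cells at 7 h it was -0.38 (-0.71 to -0.21) and -0.30 (-1.05 to 0.23), against -0.11 and 0. The intervals of the 2 classes overlapped in WT and NIH3T3 cells, and did not in PERK -/- MEFs. Most genes without a window were mevalonate genes (Acat2, Hmgcs1, Pmvk, Mvd, Idi1 and Fdps). The split by window therefore cannot be told apart from the split by subgroup. A window shows hydropathy only, and Mvk, Fasn and Acaca each had 1.

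Genes around these pathways had medians nearer to 0 than the 34 genes did at 8 h in both MEF lines. A list of 53 companions was drawn up by function, of which 52 had a row, 46 were expressed in MEFs and 45 in NIH3T3 cells. Their median change was -0.22 at 8 h in WT (-0.45 to 0.04), 0.24 at 8 h in PERK -/- MEFs (0.03 to 0.46) and -0.32 at 7 h in NIH3T3 cells (-0.45 to -0.09). The contrast did not hold throughout, since the fatty acid genes alone were at -0.21 at 8 h in WT. At 7 h in NIH3T3 cells the 34 genes were at -0.38 with a hydrophobic window and -0.30 without. At 8 h in WT, 4 of 46 were 2-fold higher and 2 lower, where the background is 6.45% and 3.87%. In PERK -/- MEFs 1 was higher and 0 lower, where the background is 3.28% and 2.73%. The isoprenoid branch, with 6 genes downstream of farnesyl diphosphate, had medians of 0.08 and 0.09. The 8 genes of SREBP processing and sterol-regulated degradation had -0.45 and 0.39, and the 12 of elongation, desaturation and acyl-CoA synthesis -0.36 and 0.37. The 7 of sterol transport and esterification had -0.04 and -0.06, and the 5 of acetyl-CoA and NADPH supply, counting Mcat, had -0.34 and 0.07. The 7 of glycerolipid synthesis, counting Mid1ip1, had 0 and 0.32. Lbr, a sterol reductase of the nuclear envelope, had -0.88 and 0.03.

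Of the companions, Soat1, which esterifies cholesterol, was at 212 TPM in the WT control, 77.8 TPM at 5 h and 89.1 TPM at 8 h. Rnf145, a ubiquitin ligase of the sterol-regulated pathway, was 2-fold lower at 8 h in WT (26.7 to 11.04 TPM) and at 7 h in NIH3T3 cells (22.7 to 10.6 TPM). Erlin2 (78.0 to 28.5 TPM), Mylip (20.5 to 6.96 TPM), Hacd3 (36.5 to 17.5 TPM) and Acsl3 (22.3 to 11 TPM) were so at 7 h in NIH3T3 cells, and Mylip also at 5 h in PERK -/- MEFs (17.4 to 5.40 TPM). Higher were Mid1ip1, which activates acetyl-CoA carboxylase, at 30.1 TPM in the WT control and 89.6 and 95.5 TPM at 5 and 8 h, and at 35.2 and 84.0 TPM in NIH3T3 cells in the control and at 7 h. Mcat, of mitochondrial fatty acid synthesis, was at 6.78 TPM in the WT control and 19.2 and 18.9 TPM at 5 and 8 h, and at 12.7 and 41.6 TPM in NIH3T3 cells, where the log2 change was 1.72 in TPM and 1.02 in counts (0.68 to 1.36). Fads3 (160 to 326 TPM) and Nr1h2 (6.10 to 13.3 TPM) were 2-fold higher at 8 h in WT, and Hacd2 (105 to 283 TPM) at 8 h in PERK -/- MEFs.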

How the data were processed

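Ribosome footprints of 13 libraries were used, 5 of PERK WT MEFs, 5 of PERK -/- MEFs and 3 of NIH3T3 cells. Per the study's methods, reads of 22 to 34 nt were retained and filtered against rRNA and tRNA (STAR), then mapped by Bowtie2 to mm10 RefSeq coding regions lacking 30 nt at either end, and quantified by RSEM. Tool versions are not given in the sources used here. Expected counts, unscaled and with no decimals, and TPM, scaled by RSEM within each library, are as deposited by the authors.

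Genes had to reach a mean TPM of 2 across the MEF (10432 genes) or NIH3T3 libraries (10117), and 2-fold was taken as the limit, as in the study. All 34 genes were described, and companions were named where 2-fold from the control at 5, 7 or 8 h, except 1 that is not reported here. Intervals were set at 95% confidence. They were tried on simulated counts with counting error only and on simulated independent values, not on genes that change together. The genes and lists were chosen with earlier results of these data known. GC content (96.1% of MEF genes), k-mers of 28 nt and hydropathy were computed from GENCODE coding sequences on GRCm38, which is the mm10 assembly. The GC trend was a lowess fit with fraction 0.3.

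Alternatives were a floor of 1 TPM, no floor with 1 TPM added, a mean TPM of 5, no filter, TMM (edgeR 4.0.16) and DESeq2 1.42.0 size factors on counts, thinned counts, removal of the GC trend, 1.5-fold and 3-fold limits, and other subgroup borders. Scripts ran in R 4.3.3 and Python 3.11.15 (pandas 2.3.3, numpy 2.4.6, statsmodels 0.14.6, scipy 1.17.1, matplotlib 3.10.9).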

Additional observations from a re-analysis of the deposited data

Results flagged for a closer look

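The late sterol median at 8 h of Tg was -1.05 in PERK WT MEFs and 0.67 in PERK -/- MEFs, and the intervals of the 2 medians lie on opposite sides of 0, with 10 of 11 genes below the control in WT and 11 of 11 above it in PERK -/- MEFs. The fatty acid median was -0.21 in WT and 0.71 in PERK -/- MEFs, with 10 of 10 genes below and 9 of 10 above. Over all 34 genes the medians were -0.54 and 0.57. These are changes in opposite directions under the same treatment in 2 MEF lines of different genotype, each from 1 library against 1 control. The difference was not tested, and loss of PERK cannot be told apart from other differences between the lines or their controls.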

How the results depend on the processing

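No paired analysis was possible because each condition was 1 library, and for the same reason no replicate could be left out. Depth limits single genes most in the WT library at 2 h and the NIH3T3 library at 2 h. Of 40 subgroup medians, 36 kept their direction under every alternative run. The others lie near 0: mevalonate at 5 h in PERK -/- MEFs (-0.05 to 0.04) and at 2 h in NIH3T3 cells (-0.01 to 0.18), and SREBP regulator at 5 h in PERK -/- MEFs (-0.04 to 0.06) and at 7 h in NIH3T3 cells (-0.21 to 0.03). The cause was not tested for any shift below.

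Outside their interval were the late sterol median at 2 h in PERK -/- MEFs with DESeq2 size factors (-0.37), the fatty acid median at 5 h in WT with TMM (-0.44) and without the GC trend (-0.45), and that at 2 h in PERK -/- MEFs without the GC trend (-0.43). The median difference between the genotypes in fatty acid genes at 2 h, which was -0.33, came to -0.062 with TMM and turned to 0.00306 without the GC trend, both chosen after seeing the data.

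For the number of genes changed at least 2-fold, a 1.5-fold limit gave 8, 16, 20 and 18 in WT (1, 2, 5, 8 h), 22, 20, 3 and 17 in PERK -/- MEFs and 7 and 13 in NIH3T3 cells (2, 7 h), against 23%, 27.5%, 28.3% and 29.8%, 17.1%, 22.4%, 23.3% and 20.7%, and 30.1% and 36.8% of expressed genes. A 3-fold limit gave 0 at 2 h, 1 at 5 h and 0 at 8 h in WT, 2, 2, 0 and 0 in PERK -/- MEFs and 0 and 2 in NIH3T3 cells, against 2.06%, 2.15% and 2.22%, 0.623%, 1.03%, 1.95% and 1.15%, and 2.14% and 3.96%. At 1 h in WT, TMM gave 1. At 2 h in PERK -/- MEFs, TMM and DESeq2 size factors gave 5 each and removal of the GC trend gave 6. At 5 h there, thinning gave 2, and removal of the GC trend and the added 1 TPM gave 0 each, and at 8 h thinning gave 2. At 2 h in NIH3T3 cells, TMM, DESeq2 size factors, thinning, removal of the GC trend and the added 1 TPM gave 1 each, and at 7 h TMM and DESeq2 size factors gave 5 each. Of 340 single-gene changes, 301 in TPM lay within the interval of the counts.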
